A study of Homo sapiens with 2 samples.

Results

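The nuclear genes of the mitochondrial respiratory chain and of ATP synthase were compared between 2 Affymetrix microarrays of L-428 cells. A gene was taken as a member if a probe set (the group of oligonucleotides that measures a transcript) carried its symbol alone and the symbol began with NDUF, UQCR, ATP5, COX4, COX5, COX6, COX7 or COX8, or was CYC1 or CYCS. This gave 72 of the 11963 genes on the array, with 101 probe sets, and the brightest probe set, by the mean of both signals, stood for its gene. Of the 72 genes, 63 encode subunits or cytochrome c and 9 do not, namely 5 assembly factors, a supercomplex factor, the ATP synthase inhibitor, a pseudogene and an antisense RNA. L-428 is an established Hodgkin's lymphoma (HL) cell line. Cells for the knock-down array carried the vector pcDNA6.2-GW/EmGFP-miR-DUSP5, which expresses an artificial microRNA against the ERK phosphatase DUSP5 beside a green fluorescent protein. Cells for the control array carried pcDNA6.2-GW/EmGFP-miR-neg, a control vector that the methods describe as empty. All cells were thus of the same line and both populations were transfected. The share of cells that took up a vector, and the time between transfection and RNA extraction, were not given in the sources used here.

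The respiratory chain lies in the inner mitochondrial membrane. Complex I oxidises NADH and passes the electrons to ubiquinone, complex III passes them from ubiquinol to cytochrome c, and complex IV reduces oxygen, while all of these complexes pump protons. ATP synthase, also called complex V, lets the protons flow back and makes ATP in its F1 head. Apart from a small core that the mitochondrial genome encodes, the subunits are nuclear genes, and it is these that the array measures here. Such genes are known to be transcribed at high levels in most growing cells.

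Because each condition had 1 array, no test was possible and no p-value was computed. Log2 ratios are given as knock-down over control, from the signal intensities of the arrays. Their only error estimate is the standard deviation (SD) of the ratios of probe sets that share a gene and a band of signal, which was 0.41 at mean signals of 200 to 500, 0.36 at 500 to 1000, 0.30 at 1000 to 3000 and 0.26 above 3000. This estimate holds the error of the probes but no spread between cultures. A gene counted as measured from a mean signal of 200 upwards, and as higher or lower at a ratio of at least 1.5-fold. The targeted gene DUSP5 gave a signal of 628 in the control and of 368 in the knock-down, a log2 ratio of -0.77 (SD 0.41), which is less than 2 SD. All 7 listed markers of HL cells were measured, with mean signals from 537 (FUT4) to 10720.4 (GATA3), and their summed signal was 29833 in the control and 40637 in the knock-down. The markers did not move one way, with log2 ratios of 1.07 for TNFRSF8, which encodes CD30, of 0.99 for CCL17 and of -1.25 for FUT4, the enzyme that makes CD15. The 3 T cell and 3 myeloid markers were all under 200, with sums of 158 and 327 and of 96.9 and 94.3. Of 5 B cell genes, PAX5 was the only one measured, with signals of 268 and 211. The sums of the B cell genes were 486 and 612, and the difference came from the genes that were not measured. Of 3 fibroblast markers, COL1A1 (mean signal 217) and DCN (229.7) were just above 200, and the sums were 481 and 515. The part of these shifts in the results was not tested. In total RNA of a whole culture, a change of a transcript in all cells and a change in some of the cells cannot be told apart, and scaling of both arrays to 1 target leaves only relative levels.

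Most subunit genes had a higher signal on the knock-down array. Of the 63 genes for subunits and cytochrome c, 62 were measured. Of these, 26 were at least 1.5-fold higher, 2 were at least 1.5-fold lower and 34 lay between. Among all 6301 measured genes, 15.6% were that much higher and 19.0% that much lower. With quantile normalization 14 of the 62 were higher, against 16.7% of all measured genes, and with a lowess fit of ratio on signal subtracted 14 were higher, against 15.5%. With a limit of 1.2-fold 42 were higher and 6 lower, against 32.1% and 33.7%. Of the 62 genes, 49 had a ratio above 0. The median log2 ratio of these genes was 0.44, against 0.01 for all measured genes. At 2-fold, 6 subunit genes were higher and none was lower, against 4.38% and 7.30% of all measured genes. With a limit of 2 SD between probe sets, 25 genes were higher and 2 lower, against 11.5% and 14.6% of all measured genes. The complexes differed in how their subunits stood. The median log2 ratio was 0.64 for 7 genes of complex III, 0.59 for 15 of ATP synthase, 0.42 for 11 of complex IV and 0.28 for 28 of complex I. This order changed without _s_at and _x_at probe sets, whose probes can match several transcripts, with 0.70 for 6 genes of ATP synthase, 0.63 for 9 of complex IV, 0.47 for 5 of complex III and 0.057 for 18 of complex I. With quantile normalization complex IV was lowest, at 0.26 against 0.32 for complex I. With the lowess fit subtracted complex IV was also lowest, at 0.24 against 0.29 for complex I. None of the genes of complex III, complex IV or ATP synthase was at least 1.5-fold lower at its brightest probe set. Of the 100 other genes nearest in signal to each, on average 12.6%, 7.91% and 10.6% were that much lower. With quantile normalization, or with the lowess fit subtracted, 1 gene of complex IV was lower. Without _s_at and _x_at probe sets 1 gene each of complex III and of ATP synthase was lower. At the brightest probe sets, the SD of the log2 ratios among the members was 0.24 in ATP synthase. This was close to the SD between probe sets above a signal of 3000 (0.26). The SD among members was 0.44 in complex III, 0.60 in complex IV and 0.59 in complex I. For comparison it was 0.60 among the 632 other genes with signals from 3000 upwards, and 0.25 among the 50 measured cytosolic ribosomal protein genes. Without _s_at and _x_at probe sets, the 6 genes of ATP synthase spread more widely, from -0.62 (ATP5MJ) to 1.77 (ATP5F1C).

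**Figure D1:**
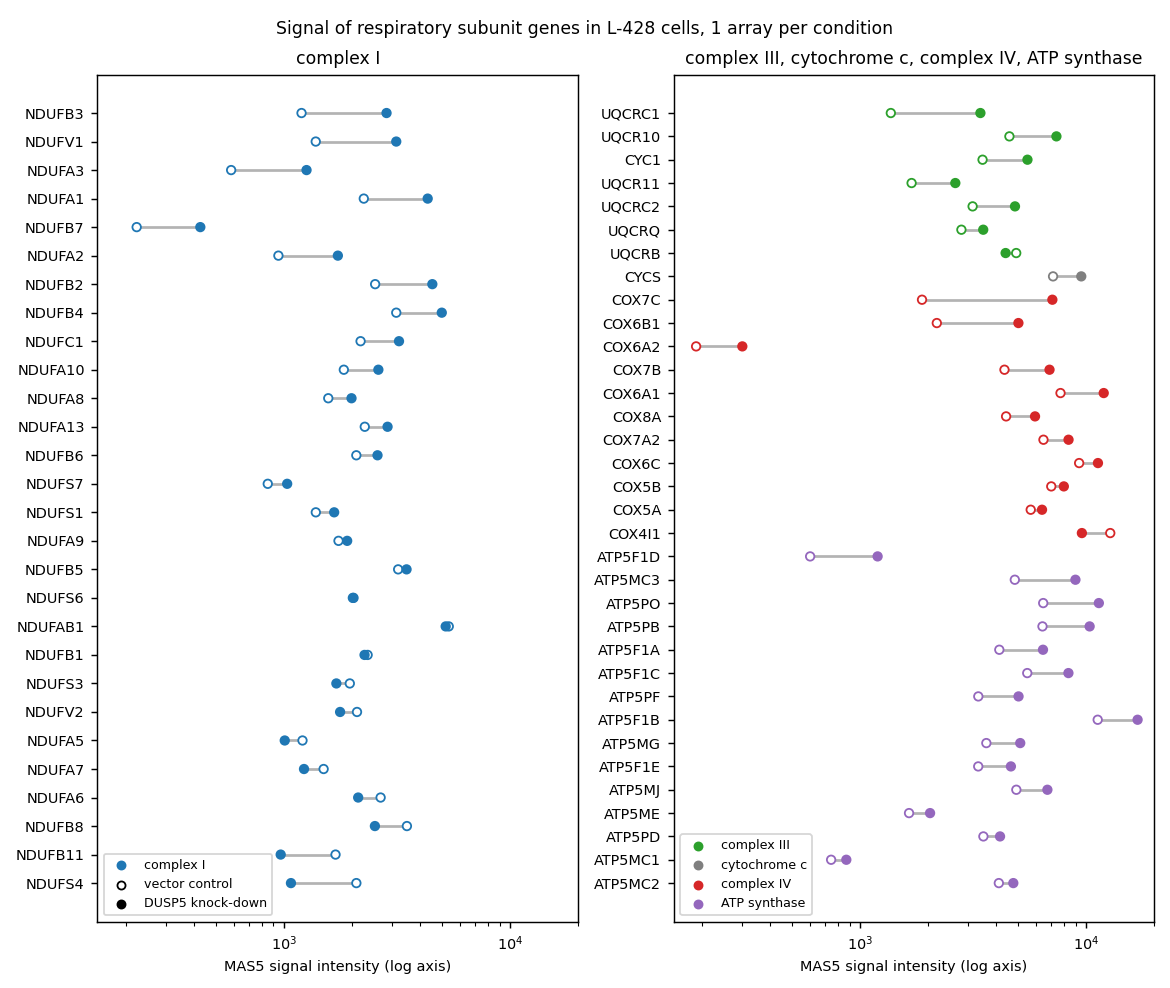
MAS5 signal intensity (log axis) of the 62 measured genes for subunits and cytochrome c on the control array (open points) and the knock-down array (filled points), ordered by log2 ratio within each complex. In ATP synthase all 15 filled points lie to the right of the open ones, while in complex I 11 of 28 lie to the left.

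**Figure D2:**
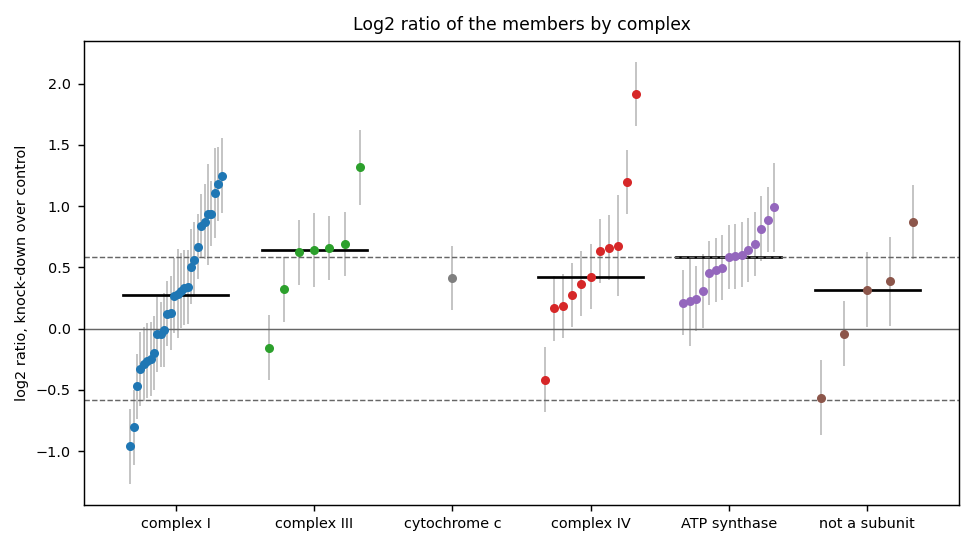
Log2 ratio of the 67 measured members by complex, from 1 array per condition. Each point is a gene, the grey bar is 1 SD between probe sets at its signal, the black line is the median and the dashed lines mark 1.5-fold, and the order of the points within a complex is by ratio. Complex I spans from -0.96 to 1.25, ATP synthase from 0.21 to 0.99.

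In complex I, 28 genes were measured, of which 8 were at least 1.5-fold higher, 2 were that much lower and 18 lay between. Without _s_at and _x_at probe sets 4 of 18 were higher and 2 lower, against 14.5% and 21.3% of all genes then measured. These 2 lower genes were NDUFS4 and NDUFA6, while NDUFB11 had no probe set left. The complex has a matrix arm, which binds NADH and holds the iron-sulphur clusters, and a membrane arm, which pumps protons. The genes were sorted into these arms from textbook knowledge after the ratios had been seen, so that the split is a description. In the membrane arm 12 of 15 genes had a ratio above 0, with a median log2 ratio of 0.51, 6 genes higher and 1 lower. In the matrix arm 5 of 12 had a ratio above 0, with a median of -0.10, 2 higher and 1 lower. The membrane arm gene NDUFB3, an accessory subunit, had a signal of 1198 in control cells and 2845 after knock-down, a log2 ratio of 1.25 (SD 0.30). Next in order was NDUFV1, the core subunit that binds FMN and NADH, with 1384 and 3141 and a log2 ratio of 1.18 (SD 0.30). NDUFA3 had signals of 585 and 1260 and a ratio of 1.11 (SD 0.36). These 3 ratios differed from each other by less than the SD between probe sets. The small membrane arm subunits NDUFA1 (2257 and 4326) and NDUFB7 (224 and 427) followed with log2 ratios of 0.94 and 0.93. NDUFA2, which belongs to the matrix arm, had a ratio of 0.87, NDUFB2 of 0.84 and NDUFB4 of 0.67. NDUFC1, at 0.56, was the first gene under the 1.5-fold limit.

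At the lower end of complex I stood NDUFS4, a matrix arm subunit whose loss is known to cause Leigh syndrome. Its signal was 2093 in control cells and 1075 after knock-down, a log2 ratio of -0.96 (SD 0.30), so that 51.4% of the control signal was left. Of the 100 other genes nearest to it in signal, 4 were as low. NDUFB11, an X-linked subunit of the membrane arm, had signals of 1693 and 969 and a log2 ratio of -0.81 (SD 0.30). NDUFB8, whose protein is often used as a marker of assembled complex I, had 3501 and 2527 at its brightest probe set and a ratio of -0.47 (SD 0.26). Of the 100 other genes nearest in signal, 13 were as low as NDUFB11 and 14 as low as NDUFB8. Between these ends lay the core subunits of the matrix arm other than NDUFV1, within 1 SD of 0. They were NDUFS7 (0.28, SD 0.36) and NDUFS1 (0.27, SD 0.30), which hold iron-sulphur clusters, and NDUFS3 (-0.20, SD 0.30) and NDUFV2 (-0.25, SD 0.30). NDUFV1 and NDUFV2, which form the NADH-oxidising tip together with NDUFS1, thus had log2 ratios of opposite sign. The other matrix arm genes were NDUFA9 (0.13), NDUFS6 (-0.01), NDUFA5 (-0.26), NDUFA7 (-0.29) and NDUFA6 (-0.33). A dimmer probe set of NDUFA6, with signals of 1882 and 1103, had a ratio of -0.77 (SD 0.30), past the 1.5-fold limit. In the membrane arm, NDUFA10 (0.51), NDUFA8 (0.34), NDUFA13 (0.33), NDUFB6 (0.31), NDUFB5 (0.12) and NDUFB1 (-0.05) lay within 1.5-fold. NDUFAB1, the mitochondrial acyl carrier protein that sits in both arms, had 5360.3 and 5196 and a ratio of -0.04.

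In complex III, 6 of the 7 measured genes had a higher signal after knock-down. UQCRC1, a core subunit that faces the matrix, had signals of 1367 in the control and 3402 in the knock-down, a log2 ratio of 1.32 (SD 0.30), and 2 of the 100 other genes nearest in signal were as high. Its partner UQCRC2 gave 3143 and 4838 and a log2 ratio of 0.62 (SD 0.26). CYC1, the cytochrome c1 that hands electrons to cytochrome c, gave 3478 and 5493 and a ratio of 0.66 (SD 0.26). The small subunits UQCR10 (0.69) and UQCR11 (0.64) lay close to CYC1, by less than the SD between probe sets. UQCRQ had a ratio of 0.32. UQCRB, which takes part in ubiquinone binding, was the exception in direction, with 4898 and 4398 and a ratio of -0.16 (SD 0.26). CYCS encodes cytochrome c, which carries electrons from complex III to complex IV and triggers the apoptosome when released. It gave 7128 and 9499, a log2 ratio of 0.41 (SD 0.26), and 45 of the 100 other genes nearest in signal were as high. With the lowess fit on signal subtracted, the median of complex III was 0.49 and 2 genes were at least 1.5-fold higher in place of 5.

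At the brightest probe sets, complex IV held the gene with the largest ratio of all measured members. COX7C, a small subunit of the membrane part, had a signal of 1878 in control cells and of 7078 in knock-down cells, a 3.77-fold difference and a log2 ratio of 1.91 (SD 0.26). None of the 100 other genes nearest in signal was as high. At the brightest probe sets, the gap of COX7C to UQCRC1, the next in order, was larger than the SD between probe sets of either gene. Without _s_at and _x_at probe sets, COX7C had a ratio of 1.43 (SD 0.36), less than 1 SD above UQCRC1. ATP5F1C was then higher than COX7C, at 1.77 (SD 0.41). COX6B1, which links the monomers of the complex on the side of the intermembrane space, gave 2183 and 5009.6 and a ratio of 1.198 (SD 0.26), and 2 of 100 neighbouring genes were as high. COX7B gave 4347 and 6876 and a log2 ratio of 0.66, and COX6A1, the isoform found in most tissues, gave 7690.2 and 11938 and a ratio of 0.63. Its muscle isoform COX6A2 had a ratio of 0.68 at the low signals of 188 and 301 (SD 0.41). It counted as measured through the knock-down array only, and with a filter at a mean signal of 500, which leaves it out, 4 of 10 genes of complex IV were at least 1.5-fold higher. The other muscle isoform COX7A1 was not measured, at 9.25 and 13.98. COX8A (0.42), COX7A2 (0.37), COX6C (0.28), COX5B (0.18) and COX5A (0.17) were within 1.5-fold. COX4I1, the regulatory subunit that binds ATP, was the only gene of complex IV with a ratio below 0 in the signals as deposited. Its signal was 12761 in control cells and 9559 after knock-down, and the log2 ratio was -0.42 (SD 0.26). Of the 100 other genes nearest in signal, 3 were as low as COX4I1. Its ratio was -0.82 with quantile normalization and -0.78 with the lowess fit subtracted, and 3 genes of complex IV were then at least 1.5-fold higher and 1 was lower. In the same order of settings, COX5B (-0.10 and -0.09), COX6C (-0.10 and -0.07) and COX5A (-0.07 and -0.06) were also below 0.

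At their brightest probe sets, all 15 measured genes of ATP synthase had a higher signal on the knock-down array, and 8 of them by at least 1.5-fold. ATP5F1B, the catalytic β subunit, had signals of 11229.5 and 16854 and a log2 ratio of 0.59 (SD 0.26), just inside the limit of 1.5-fold. The other subunits of the F1 head were ATP5F1A (α, 4124 and 6434, ratio 0.64), ATP5F1C (γ, 5482 and 8335, ratio 0.60), ATP5F1D (δ, 601 and 1195, ratio 0.99) and ATP5F1E (ε, 3328 and 4641, ratio 0.48). At the brightest probe sets, the 5 head subunits lay within a range of 0.51. Without ATP5F1D they differed by less than 0.26, the SD between probe sets. Other bright probe sets of ATP5F1C had ratios of 0.79 and 0.82, above ATP5F1E by more than this SD. In the peripheral stalk, which holds the head in place, ATP5PO (0.82), ATP5PB (0.69) and ATP5PF (0.59) were at least 1.5-fold higher and ATP5PD (0.24) was not. A dimmer probe set of ATP5PO (690 and 815) had a ratio of 0.24. The mean of its probe sets was 0.53, under the 1.5-fold limit. The small membrane subunits ATP5MG (0.50), ATP5MJ (0.46) and ATP5ME (0.31) were within 1.5-fold. The ring of c subunits is built from 3 genes that encode the same mature protein behind different targeting sequences. ATP5MC3 gave 4830 and 8952 and a log2 ratio of 0.89 (SD 0.26). ATP5MC2 gave 4104 and 4756 and a ratio of 0.21 (SD 0.26), and ATP5MC1 gave 744 and 869 and a ratio of 0.22 (SD 0.36). ATP5MC3 thus lay above both other genes by more than 1 SD. With the lowess fit subtracted the median of ATP synthase was 0.35 and 2 genes were at least 1.5-fold higher in place of 8, and with quantile normalization it was 0.38, also with 2 genes.

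Of the 9 members that are not subunits, 5 were measured. ATP5IF1, the inhibitor that stops ATP synthase from running backwards, had signals of 1538 in the control and 1042 in the knock-down, a log2 ratio of -0.56 (SD 0.30). It thus had the opposite sign to the brightest probe sets of all 15 measured genes of the enzyme it binds. However, 25 of the 100 other genes nearest in signal were as low. The complex I assembly factors NDUFAF3 (799.5 and 1462, ratio 0.87), NDUFAF1 (0.39) and NDUFAF4 (0.32) had ratios above 0, and only NDUFAF3 was at least 1.5-fold higher. COX7A2L, which joins complexes III and IV into supercomplexes, had 6735 and 6545 and a ratio of -0.04. NDUFAF5, NDUFAF7, the pseudogene ATP5MC2P1 and the antisense RNA NDUFB2-AS1 had, like COX7A1, mean signals under 100, where the SD between probe sets was 1.19, and are given no ratio here.

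The members were bright, and bright genes as a whole stood higher on the knock-down array. The median mean signal of the 62 genes was 3318, brighter than 90.9% of all measured genes. Over these 632 other bright genes, the median log2 ratio was 0.20, with 22.8% of genes at least 1.5-fold higher and 9.34% lower. Each member was therefore set beside the 100 other genes nearest in mean log2 signal. On average 18.1% of these neighbouring genes were at least 1.5-fold higher and 13.5% lower, against 26 and 2 of the 62 members. Of the 62 genes, 47 lay above the median of their neighbours, and the median of the differences was 0.36 on the log2 scale. By complex it was 0.50 for complex III, 0.36 for ATP synthase, 0.32 for complex IV and 0.26 for complex I. Of the complex IV genes 7 of 11 lay above their neighbours, COX7A2 by 0.0044, while COX6C (-0.03), COX5A (-0.08), COX5B (-0.17) and COX4I1 (-0.76) lay below them. All 15 genes of ATP synthase lay above. The ribosomal protein gene families gave the following values. The 50 measured cytosolic ribosomal protein genes had a median log2 ratio of 0.47, with 14 genes at least 1.5-fold higher and none lower, at a median signal of 17728. The 47 measured mitochondrial ribosomal protein genes, whose products translate the core subunits that the mitochondrial genome encodes, had a median of 0.24, with 11 higher and 4 lower, at a median signal of 1097. The part of signal level and of scaling in the ratios of the members was not tested beyond these values.

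**Figure D3:**
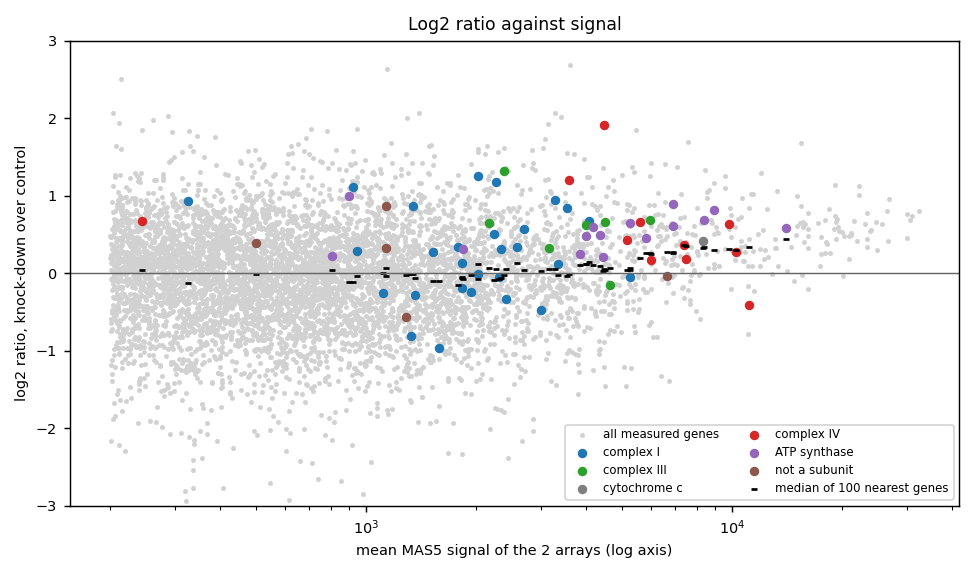
Log2 ratio (knock-down over control) against the mean MAS5 signal of the 2 arrays (log axis) for all 6301 measured genes (grey) and the 67 measured members (coloured by complex), with the median of the 100 other genes nearest in signal drawn as a black dash for each member. The vertical axis leaves out 7 genes, none of them a member. The dashes rise at high signal, and most coloured points lie above them.

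For 15 members more than 1 probe set had a mean signal of at least 200, and in 12 of them all of these probe sets had the same sign (80.0%), against 68.2% of 1897 genes over the whole array. COX7C was higher at all 3 of its probe sets, with log2 ratios of 1.91, 2.01 and 1.43. COX4I1 was lower at all 3, with -0.42, -0.35 and -0.42. The probe sets of NDUFB2 (0.84 and 0.81), ATP5F1D (0.99 and 1.13) and UQCRC2 (0.62 and 0.47) also lay close together. The brightest probe sets of COX7C and COX4I1 are of the type _x_at, which can also bind transcripts of related sequence, and the values of 1.43 and of -0.42 for the dimmest come from probe sets of the type _at. UQCRB was lower at all 3 of its probe sets, by more at the dimmer ones (-0.61 and -0.63) than at the brightest (-0.16). ATP5F1C had ratios of 0.60, 0.79 and 0.82 at 3 bright probe sets and 1.77 at a dim one with signals of 154 and 527. The probe sets of 3 genes disagreed in sign. ATP5MJ had 0.46 and -0.62, and NDUFB8 had -0.47 at both bright probe sets and 0.26 at a dim one. COX5B was between 0.15 and 0.20 at 3 bright probe sets and at -0.23 at a dim one. Among the genes farthest from 0, NDUFS4, NDUFB11, UQCRC1, NDUFB3, NDUFV1 and COX6B1 each had 1 probe set, so that their ratios could not be compared in this way.

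**Figure D4:**
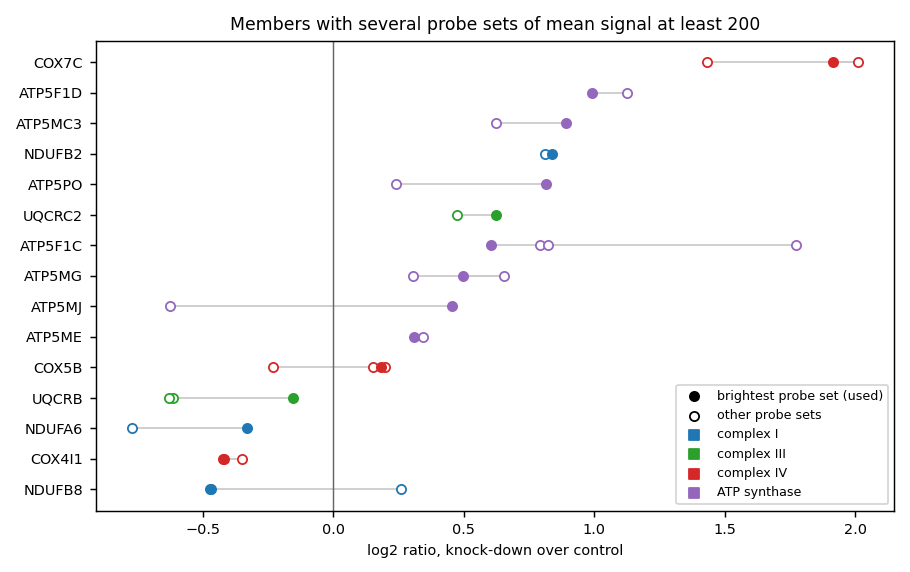
Log2 ratio (knock-down over control) at each probe set with a mean signal of at least 200, for the 15 members with more than 1 such probe set. Filled points are the brightest probe sets, which represent the gene, open points the others, and colours give the complex. COX7C lies on the right and COX4I1 on the left with all of their probe sets, while ATP5MJ, COX5B and NDUFB8 lie on both sides of 0.

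Promoters are shown for the genes at both ends of the order, UQCRC1 and COX7C as the highest and NDUFS4 and NDUFB11 as the lowest, so that the motifs of both ends can be compared. The sequences are those of RefSeq on GRCh38.p14, from 250 bases before to 50 after the start of transcription, written 5′ to 3′ on the strand of the gene. Capitals mark matches on either strand to motifs known from promoters of respiratory genes, which were CGCATGCG (core of the NRF1 site), CCGGAAG (ETS factors, among them GABPA), AAGATGGC (YY1), TCAAGGTCA (oestrogen-related receptors) and GGGCGG (GC box). COX7C lies on the plus strand at chr5:86617691-86617990 and UQCRC1 on the minus strand at chr3:48609597-48609896. NDUFS4 lies on the plus strand at chr5:53560389-53560688 and NDUFB11 on the minus strand at chrX:47144653-47144952.
COX7C: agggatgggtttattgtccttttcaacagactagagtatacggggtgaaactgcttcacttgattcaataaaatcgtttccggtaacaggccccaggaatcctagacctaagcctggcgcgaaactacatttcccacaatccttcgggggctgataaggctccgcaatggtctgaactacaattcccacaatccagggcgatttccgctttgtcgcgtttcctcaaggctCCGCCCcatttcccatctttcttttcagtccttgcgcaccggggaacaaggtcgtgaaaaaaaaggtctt
UQCRC1: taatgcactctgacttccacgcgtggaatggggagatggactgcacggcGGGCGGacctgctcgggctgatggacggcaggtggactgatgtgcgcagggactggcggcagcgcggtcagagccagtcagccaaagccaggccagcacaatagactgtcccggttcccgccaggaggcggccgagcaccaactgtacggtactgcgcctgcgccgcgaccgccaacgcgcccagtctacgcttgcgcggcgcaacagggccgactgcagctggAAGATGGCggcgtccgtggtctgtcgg
NDUFS4: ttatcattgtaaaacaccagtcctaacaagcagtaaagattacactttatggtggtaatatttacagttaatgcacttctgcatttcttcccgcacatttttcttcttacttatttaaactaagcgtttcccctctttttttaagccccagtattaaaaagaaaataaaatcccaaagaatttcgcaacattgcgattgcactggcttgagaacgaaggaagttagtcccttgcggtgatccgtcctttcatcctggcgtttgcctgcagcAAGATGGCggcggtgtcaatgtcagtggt
NDUFB11: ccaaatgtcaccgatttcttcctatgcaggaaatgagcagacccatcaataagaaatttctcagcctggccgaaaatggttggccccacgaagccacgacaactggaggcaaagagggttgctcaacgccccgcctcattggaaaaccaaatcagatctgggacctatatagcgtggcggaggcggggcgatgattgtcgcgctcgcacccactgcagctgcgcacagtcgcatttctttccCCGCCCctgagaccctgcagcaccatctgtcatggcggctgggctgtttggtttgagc

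The promoters of COX7C and NDUFB11, which lay at opposite ends, each held 1 GC box match, at positions -20 and -8 from the start, and no other match. UQCRC1 held a GC box at -201. UQCRC1 and NDUFS4, also at opposite ends, both held the YY1 motif, at positions 24 and 22 after the start. The same motifs thus occurred in members with ratios of either sign. Over all measured subunit and cytochrome c genes, 55 had promoters in the table, 67 in number. The NRF1 core was found in 10 of the 67 (14.9%), against 3.81% of 7931 promoters of measured genes and 2.02% of all 35116. The YY1 motif was in 12 (17.9%), against 5.94% and 2.89%, and the ETS motif in 18 (26.9%), against 18.1% and 10.3%. The GC box was in 42 (62.7%), against 66.7% and 45.0%. None of the 67 held the motif of oestrogen-related receptors, which 0.113% of promoters of measured genes held. The 10 genes with the NRF1 core had a median log2 ratio of 0.32 and the 45 without it 0.46. For the YY1 motif the medians were 0.28 in 11 genes with it and 0.44 in 44 without it, and for the ETS motif 0.42 in 17 and 0.44 in 38. For the GC box they were 0.44 in 36 and 0.41 in 19.

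Genes around the respiratory chain are described by lists, whose counts stand against 15.6% higher and 19.0% lower among all measured genes. Complex II feeds electrons from succinate into the chain, and the 4 measured genes of its list were all within 1.5-fold. They were the subunit genes SDHA (1157 and 881, log2 ratio -0.39), SDHC (0.13) and SDHD (0.45), and the assembly factor SDHAF1 (485 and 694, ratio 0.52). Their median, with SDHAF1 included, was 0.29, and it turned to -0.041 when the probe sets of a gene were averaged. Of 13 measured assembly factors of complex IV, 3 were at least 1.5-fold higher and 2 lower, with a median of 0.15. COA4 (402 and 820, ratio 1.03) and COA7 (0.78) were highest, and FASTKD3 (-0.95) and CMC2 (4277 and 2418, ratio -0.82) were lowest. Of 3 measured assembly factors of complex III, BCS1L, which inserts the Rieske protein, was higher (651 and 1287, ratio 0.98). Of 4 measured complex I assembly factors outside the NDUF names, TMEM186 was lower (-0.76), and the assembly factor of ATP synthase TMEM70 had a ratio of -0.47. Among 10 measured genes of coenzyme Q synthesis 2 were higher, the prenyl diphosphate synthase PDSS1 (427 and 869, ratio 1.03) and the methyltransferase COQ3 (0.94), and 2 were lower, COQ4 (-0.78) and COQ9 (-0.71).

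Of 12 measured regulators of respiratory genes, 3 were at least 1.5-fold higher and 3 lower, with a median of 0.11. With 12 genes, nothing is read from these counts. The transcription factor NRF1, which binds promoters of many respiratory genes, was lowest, with signals of 319.8 and 146 and a log2 ratio of -1.13 (SD 0.41). It counted as measured through the control array only, where it was high. GABPB1, a subunit of the ETS factor GABP, followed with 1434 and 744 and a ratio of -0.95 (SD 0.30). The oestrogen-related receptor ESRRA was highest, with 344 and 691 and a ratio of 1.004 (SD 0.36), before TFB1M (0.66), a mitochondrial rRNA methyltransferase. The coactivator PPARGC1A was not measured, at signals of 6.99 and 15.0. Among 10 measured carriers and porins, 3 were higher and none lower. They were VDAC1 (1503 and 4604, ratio 1.61), a channel of the outer membrane, the carrier UCP2 (1476 and 3884, ratio 1.40) and SLC25A5 (8991 and 16002, ratio 0.83), which exchanges ADP for ATP. The paralogues VDAC2 and VDAC3 had ratios of -0.08 and -0.40. No probe set carried the symbol of a subunit that the mitochondrial genome encodes, so that these had no value.

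**Figure D5:**
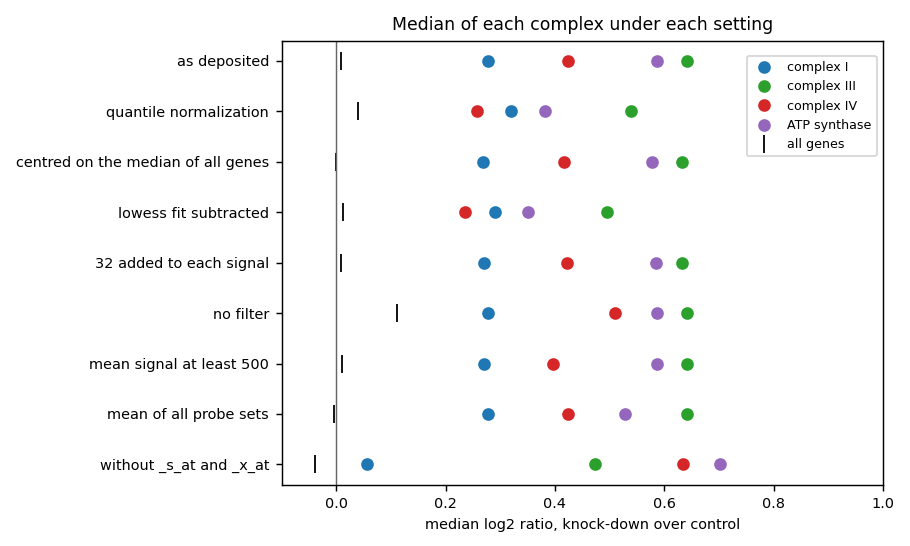
Median log2 ratio (knock-down over control) of the measured genes of each complex under 9 settings of the processing (points), with the median of all genes as a black bar. All 36 points lie to the right of the bar of their setting, and complex I or complex IV is lowest in each setting.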

How the data were processed

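RNA from L-428 cells was hybridised to 2 Affymetrix arrays, 1 per condition. The authors processed the Cel files in Expression Console with the MicroarraySuite algorithm (MAS5, per the methods), and they deposited linear signal intensities for 22283 probe sets, scaled by the authors to a target intensity of 500. Of 22215 probe sets other than controls, 19065 carried 1 symbol of the platform annotation, and only these were named. All 72 member gene IDs were found in RefSeq (GRCh38.p14). Log2 ratios of the deposited signal intensities were computed without further normalization. The brightest probe set stood for a gene, which counted as measured from a mean signal of 200. The SD between probe sets came from pairs of 1 gene within a band of signal. Array number limits the precision, and detection calls and protein sequences were not used here. The members, lists and motifs were chosen with earlier results of these data known, and members were sorted by role after the ratios had been seen. All members could be named. The genes named outside the members were DUSP5, markers, and up to 2 highest and 2 lowest measured genes of a list, while SLC25A5, VDAC2 and PPARGC1A were chosen after their values were seen. Alternatives were quantile normalization, centring, subtraction of a lowess fit (span 0.3), 32 added to each signal, no filter or one of 500, the mean of all probe sets, no _s_at or _x_at probe sets, and limits of 1.2-fold and 2-fold. The steps were tested on simulated data. The software was matplotlib 3.10.9, statsmodels 0.14.6, pandas 2.3.3 and numpy 2.4.6 under Python 3.11.15.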

Additional observations from a re-analysis of the deposited data

How the results depend on the processing

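No paired analysis was possible because there was 1 array a condition. Of 168 alternative values of medians and counts, 124 stayed within probe error or within 1.5 times, 43 moved and 1 changed sign. The last was the median of the complex II list, SDHAF1 included, from 0.29 to -0.041 when the probe sets of a gene were averaged. The cause was not tested, apart from the size limits and left-out probe sets, which change counts by construction. All medians of complexes I, III and IV and of ATP synthase stayed above 0, with ranges of 0.057 to 0.32, 0.47 to 0.64, 0.24 to 0.63 and 0.35 to 0.70. The median of all genes moved from 0.01 to 0.11 with no filter and lay between -0.039 and 0.039 otherwise. Low signal over background limits COX6A2 and the genes not measured.

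With quantile normalization the median was 0.35 for all 62 subunit genes, 0.26 for complex IV, 0.38 for ATP synthase and 0.18 for carriers and porins. At least 1.5-fold higher were then 14 genes in all, against 16.7% of all measured genes, 2 in complex III, 3 in complex IV and 2 in ATP synthase, and 1 gene of complex IV was lower. With the lowess fit subtracted the medians were 0.31 in all, 0.49 for complex III, 0.24 for complex IV, 0.35 for ATP synthase and 0.17 for carriers and porins, with 14 genes higher in all, against 15.5% of all measured genes, 2 in complex III, 3 in complex IV and 2 in ATP synthase, and 1 lower in complex IV. Without _s_at and _x_at probe sets the medians were 0.057 for complex I, 0.47 for complex III, 0.63 for complex IV and 0.70 for ATP synthase. Of 39 subunit genes then measured 15 were higher and 4 lower, against 14.5% and 21.3% of all genes then measured. Of these subunit genes, 4 were higher in complex I, 2 higher and 1 lower in complex III, and 4 higher and 1 lower in ATP synthase. At 2-fold 6 genes were higher and 0 lower, with 3 and 0 in complex I, 1 higher in complex III, 2 in complex IV and 0 in ATP synthase. At 1.2-fold 42 were higher and 6 lower, against 32.1% and 33.7% of all measured genes, with 15 and 5 in complex I and 8 and 1 in complex IV. The matrix and membrane arms of complex I, compared in an alternative chosen after seeing the data, had medians of -0.25 to -0.06 and 0.42 to 0.54 over the 9 settings. No ratio of a member at least 1.5-fold higher or lower changed sign in the 4 settings in which single ratios were computed (quantile normalization, lowess fit, 32 added and mean of all probe sets). The ratios of ATP5MJ, COX5A, COX5B, COX6C and NDUFS6, all within 1.5-fold, did change sign in some of them.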

Other observations

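Probe sets with several gene symbols were not members. Of 9 such probe sets with a symbol that fits the rule, 7 had a mean signal of at least 200. Their log2 ratios ran from -0.17 to 1.15, with a median of 0.45, and 5 of the 7 were above 0. They are not named, because the annotation does not say which transcript they measure.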
